A study of Homo sapiens with 6 samples.

Results

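The nuclear genes for the subunits of oxidative phosphorylation were followed in 6 RNA sequencing libraries. Their cells carry the label Huh7, a human line derived from a hepatocellular carcinoma. In 3 libraries the cells had received a plasmid for overexpression of TP53TG1, a long noncoding RNA gene, and in the other 3 a control plasmid. The labels give no other allele or agent, and no source used here gives the time after transfection or says whether the cells were selected. Genes were chosen by name: those starting NDUFA, NDUFB, NDUFC, NDUFS or NDUFV with a digit, SDHA to SDHD, names starting UQCR, CYC1, COX4 to COX8 and ATP5, without names that hold a hyphen or end like a pseudogene. This gave 88 of 58233 gene identifiers, of which 38 were assigned to complex I, 5 to complex II, 10 to complex III, 17 to complex IV and 18 to complex V. The rule used no measured value.

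Oxidative phosphorylation makes most of the ATP of a respiring cell in the inner mitochondrial membrane. Complex I (NADH dehydrogenase) and complex II (succinate dehydrogenase) pass electrons to ubiquinone, complex III (the cytochrome bc1 complex) passes them to cytochrome c and complex IV (cytochrome c oxidase) to oxygen, and complex V (ATP synthase) uses the resulting proton gradient. Complex II is built from nuclear genes alone, whereas the other complexes combine nuclear subunits with subunits encoded in mitochondrial DNA. Several nuclear subunits exist as paralogs that differ by tissue, with a form found in most tissues, liver included, and a form of heart and skeletal muscle. Known regulators of these genes include the transcription factors NRF1, the ETS family factor GABP, and YY1. A few genes carry a family name without being classical subunits: NDUFA4 is now placed in complex IV, COX7A2L joins complexes III and IV in supercomplexes, and ATP5S and ATP5SL have the current symbols DMAC2L and DMAC2.

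Promoter sequence was taken from RefSeq (GRCh38.p14), whose table held 80 windows for 67 of the 88 genes under their current symbols, each from 250 bases before to 50 bases after a start site. The letters GCATGCGC, the core of the NRF1 motif, stood on either strand in 18.8% of the members' windows and in 3.05% of all 35116 windows. The ETS letters CCGGAAG stood in 26.2% against 10.3%, the YY1 letters AAGATGGCG in 12.5% against 1.75%, and the cyclic AMP response element TGACGTCA in 6.25% against 1.85%. TATAAA stood in 8.75% of the members' windows and 11.5% of all windows, and CCAAT in 35% and 34.6%. The letters were chosen after matches in these windows had been seen, and a match is a description of sequence only.

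The stretches below show promoters of 3 members of complex IV and of the members whose groups differed most by p (ATP5G1 and COX7A2L), with every match to these letters in capitals. COX6A1, the form of subunit 6A found in most tissues, lies at chr12:120437863-120438112 on the plus strand and held the NRF1 core at positions -218 and -174, counted from the RefSeq start, CCAAT at -76 and -33 and the ETS letters at -16. COX5B, a nuclear subunit of the same complex, lies at chr2:97645812-97646061 on the plus strand and held the NRF1 core at -136 and the ETS letters at -37. ATP5G1 (current symbol ATP5MC1), a gene for subunit c of ATP synthase, lies at chr17:48892537-48892786 on the plus strand and held CCAAT at -181, -78, -48 and -22 and the cyclic AMP response element at -57. COX7A2L lies at chr2:42361218-42361467 on the minus strand and held CCAAT at -110. COX6A2, the heart and muscle form, lies at chr16:31428429-31428610 on the minus strand and held TATAAA at -201; its last 68 bases were left off because the annotated transcript starts before the RefSeq start. In COX6A1, COX5B and ATP5G1 the last 22 or 23 bases shown lie past the start of the leading GENCODE transcript.
COX6A1: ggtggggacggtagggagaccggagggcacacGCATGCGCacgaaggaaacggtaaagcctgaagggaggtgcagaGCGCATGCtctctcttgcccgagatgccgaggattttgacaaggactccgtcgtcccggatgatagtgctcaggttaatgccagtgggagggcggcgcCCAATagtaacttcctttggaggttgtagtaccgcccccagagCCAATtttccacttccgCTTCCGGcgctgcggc
COX5B: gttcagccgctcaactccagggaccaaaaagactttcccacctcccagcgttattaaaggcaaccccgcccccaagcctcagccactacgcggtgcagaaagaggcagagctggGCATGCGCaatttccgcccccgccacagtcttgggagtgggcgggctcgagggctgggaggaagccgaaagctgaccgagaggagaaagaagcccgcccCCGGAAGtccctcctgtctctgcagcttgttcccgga
ATP5G1: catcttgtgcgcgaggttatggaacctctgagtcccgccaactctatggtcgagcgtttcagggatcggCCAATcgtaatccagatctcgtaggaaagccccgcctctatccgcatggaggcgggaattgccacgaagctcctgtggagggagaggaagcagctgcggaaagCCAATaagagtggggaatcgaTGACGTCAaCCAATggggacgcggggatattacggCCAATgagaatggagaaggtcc
COX7A2L: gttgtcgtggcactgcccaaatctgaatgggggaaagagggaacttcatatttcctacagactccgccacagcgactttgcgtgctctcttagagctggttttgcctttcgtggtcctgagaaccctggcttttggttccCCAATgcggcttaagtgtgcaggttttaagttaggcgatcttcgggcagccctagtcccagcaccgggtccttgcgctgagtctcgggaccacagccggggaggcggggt
COX6A2: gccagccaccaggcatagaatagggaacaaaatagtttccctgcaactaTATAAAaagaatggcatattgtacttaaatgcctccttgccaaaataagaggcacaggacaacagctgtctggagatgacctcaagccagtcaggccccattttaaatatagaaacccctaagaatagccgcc

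The deposited libraries summed to 599081 to 625560 FPKM (fragments per kilobase of transcript, scaled to depth) with TP53TG1 and to 667387 to 890541 FPKM with the control plasmid. The steps between low values put the depth at about 11000000 to 14800000 fragments with TP53TG1 and 13100000 to 14700000 with the control plasmid, if a step is 1 fragment. TP53TG1 itself had 69.83, 134.21 and 70.48 FPKM in the TP53TG1 libraries, against 10.57, 5.25 and 6.15 FPKM in the control libraries. The groups did not overlap (log2 difference 3.46, SE 0.381, exact permutation p = 0.1, the smallest that 3 against 3 allows). Limma gave an adjusted p of 0.0573, and 8.97e-22 once replicate number entered as a block. The second of these may not rest on the spread of TP53TG1 itself. In that fit, p-values did not follow the spread of the named members. Of 9 hepatocyte markers, 6 reached a mean of 1 FPKM, and their summed level was 17.4 to 51.9 FPKM with TP53TG1 and 39.3 to 60.1 FPKM with the control plasmid. The defining hepatocyte transcript ALB lay at 0.56 to 1.22 FPKM with TP53TG1 and 0.53 to 1.1 FPKM with control, and APOA1 and TTR were under 1 FPKM in every library. All 5 intestinal epithelium markers (CDH17, CDX2, KRT20, LGALS4, VIL1) reached a mean of 1 FPKM, with summed levels of 92.1 to 157 FPKM with TP53TG1 and 180 to 347 FPKM with control. Other hepatocyte markers were present: FGB lay at 7.01 to 22.2 FPKM with TP53TG1 and 16.5 to 28.6 FPKM with control, HNF4A at 2.57 to 14.6 and 7.28 to 15.0 FPKM, and TF at 3.51 to 9.19 and 7.94 to 10.2 FPKM. AFP, APOB and SERPINA1 also reached a mean of 1 FPKM but lay lower. AFP lay at 0.63 to 3.49 FPKM with TP53TG1 and 1.83 to 2.37 FPKM with control. APOB lay at 0.2 to 2.01 and 0.81 to 2.41 FPKM, and SERPINA1 at 0.87 to 1.48 and 0.47 to 1.92 FPKM. No profile of Huh7 from elsewhere was compared. Of the other lists, 0 of 5 muscle markers (CKM, MYH2 and MYH7 listed at 0), 3 of 4 fibroblast markers (summed 7.08 to 19.3 FPKM with TP53TG1, 4.51 to 7.45 FPKM with control) and 1 of 4 leukocyte markers (CD14) reached a mean of 1 FPKM. The part of these differences in the results that follow was not tested. Whether replicates were separate cultures is not in the labels, so the spread that p-values rest on may be technical.

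The nuclear subunit genes were highly expressed, and none passed the test between TP53TG1 and control libraries. Of the 88 genes, 80 had a mean of at least 1 FPKM and were tested (38, 5, 9, 11 and 17 for complexes I to V), and 41 of them averaged more than 100 FPKM. With limma on log2(FPKM + 1), 0 of the 80 members had an adjusted p under 0.05, where 0.00778% of all 12853 genes tested did (1 gene), and the lowest adjusted p of a member was 0.748. At an unadjusted p under 0.05 there was 1 member (ATP5G1), against 2.35% of all genes, so the members' share of 1.25% was not above the background. The 95% intervals of 79 members lay below a log2 difference of 1 and those of 46 lay above -1, with a median half-width of 0.63. These are intervals of single genes, and an adjusted p under 0.05 over all genes needs a larger difference. TP53TG1 itself, at 3.46, missed it, but its SE of 0.381 was larger than that of most members. In bulk RNA, fewer cells expressing a gene and less RNA per cell cannot be told apart.

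Most members had lower FPKM with TP53TG1, as did most genes. The log2 difference, TP53TG1 minus control, was negative for 78 of 80 members (97.5%) and for 91.4% of all genes tested. Its median was -0.30 over the members and -0.35 over all genes, and 56 members lay above the median of all genes and 24 below it. The 3 TP53TG1 values all lay below the 3 control values for 20 members (25%), where 13.3% of all genes did, and above them for 0 members, where 0.428% of all genes did. After median-of-ratios scaling, which sets the median over all genes to 0.00, the median of the members was 0.11, 1 member (the second SDHD identifier) was separated downward, against 2.05% of all genes, and 0 upward, against 2.01%. The direction of the members' median thus flipped with the scaling, which shifted the median of all genes by 0.35 on the log2 scale. The scaling divided TP53TG1 library 1 by 0.601 and the other libraries by 1.006 to 1.188. The scaled sum of the members was 22197 in TP53TG1 library 1, against 10968 and 12110 in TP53TG1 libraries 2 and 3. The scaled values thus depend strongly on that library.

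**Figure D1:**
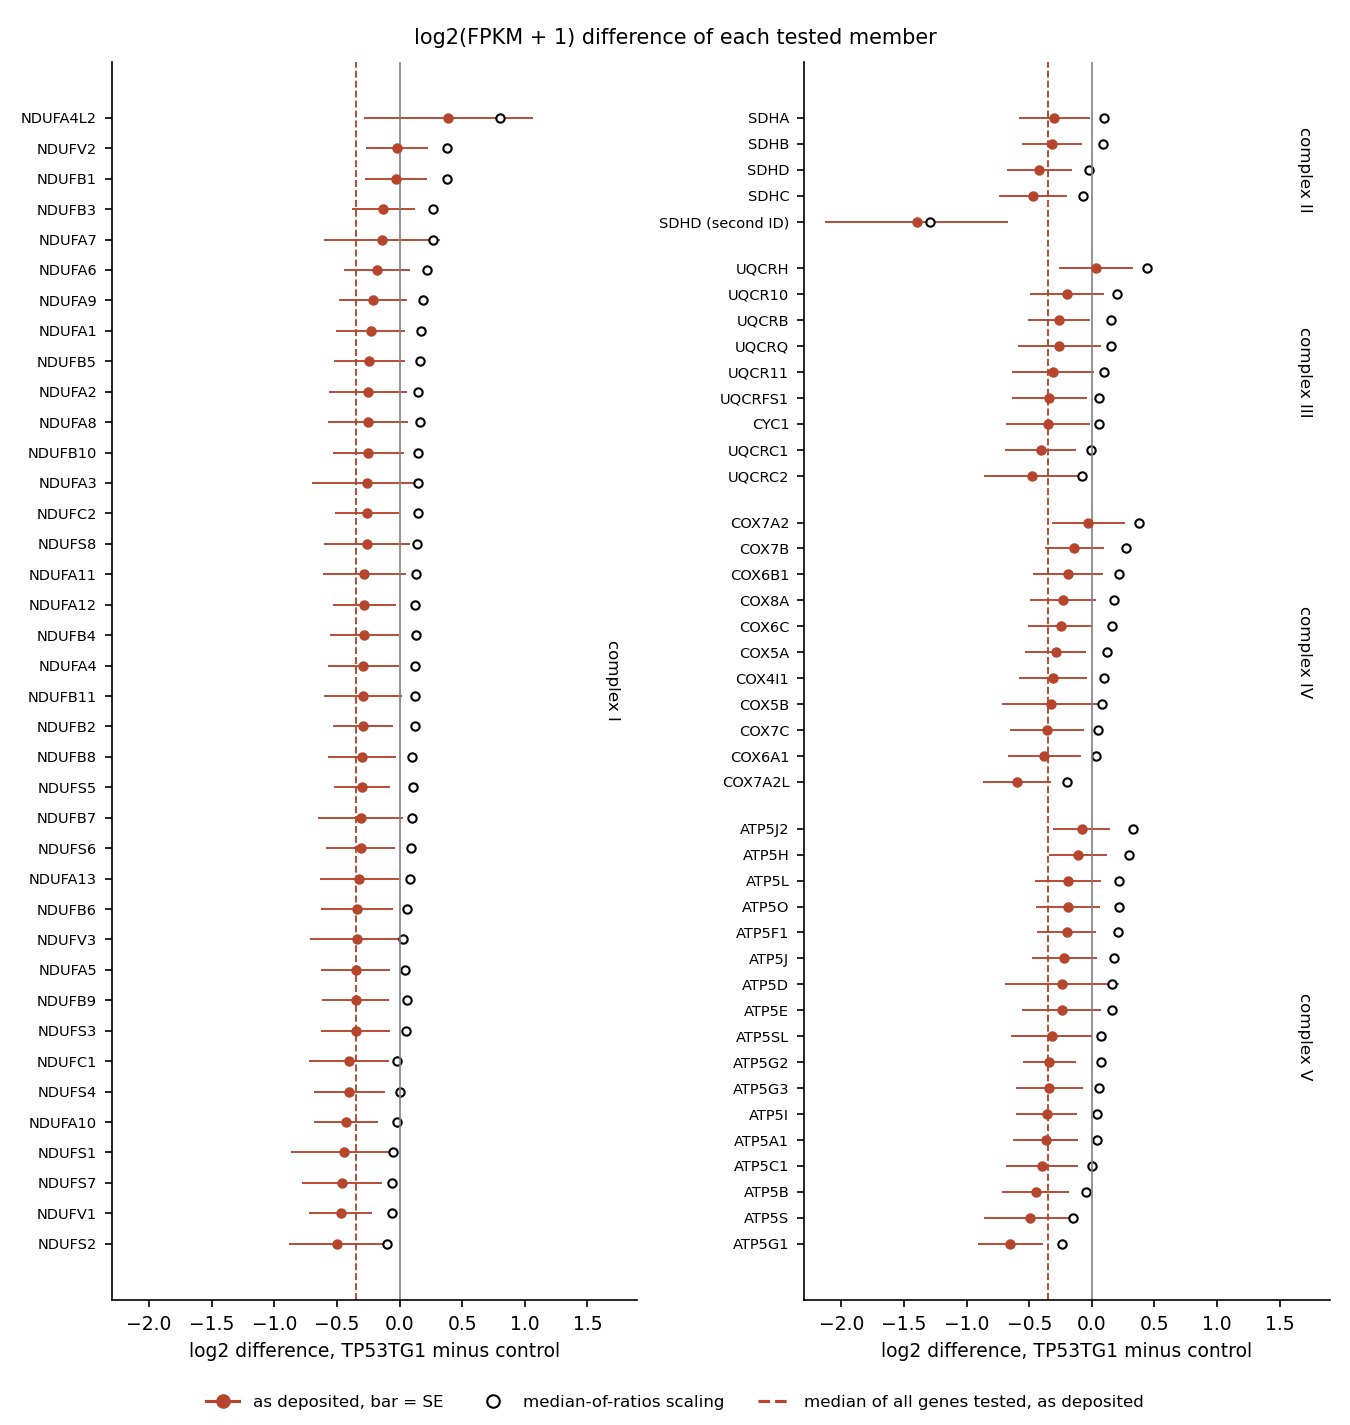
The log2(FPKM + 1) difference, TP53TG1 minus control, of each of the 80 tested members, grouped by complex; filled points with SE bars are deposited values (3 libraries a group), open points are after median-of-ratios scaling, and the dashed line is the median of all genes tested (-0.35). Nearly all filled points lie left of 0 around the dashed line, most open points lie within 0.2 of 0, and NDUFA4L2 and the second SDHD identifier stand apart with wide bars.

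As a share of the library, the summed FPKM of the members took 2.23%, 1.95% and 1.95% in TP53TG1 libraries 1 to 3 and 2.22%, 1.99% and 1.91% in control libraries 1 to 3. The share was thus similar in libraries of the same number, and the groups overlapped. The sums themselves were 13341, 12107 and 12187 FPKM with TP53TG1, against 19749, 13585 and 12717 FPKM with control. Control library 1 was the highest of the 6, and without it the median difference of the members was -0.09, while that of all genes was -0.37. By complex, the TP53TG1 and control means of the sums were 4094 ± 272 and 5003 ± 1385 FPKM for complex I, 275 ± 39.7 and 360 ± 32.1 FPKM for complex II, and 1223 ± 45.4 and 1509 ± 469 FPKM for complex III (SD, n = 3 each). They were 3259 ± 477 and 4086 ± 1265 FPKM for complex IV, and 3693 ± 94.9 and 4392 ± 716 FPKM for complex V (SD, n = 3 each). Complex II had the lowest sum from the fewest genes, and its sums with TP53TG1 (230, 302 and 295 FPKM) all lay below those with control (395, 354 and 332 FPKM). After scaling they overlapped, at 382, 273 and 293 with TP53TG1, against 356, 298 and 280 with control. The highest of these was TP53TG1 library 1, which the scaling divided by 0.601.

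**Figure D2:**
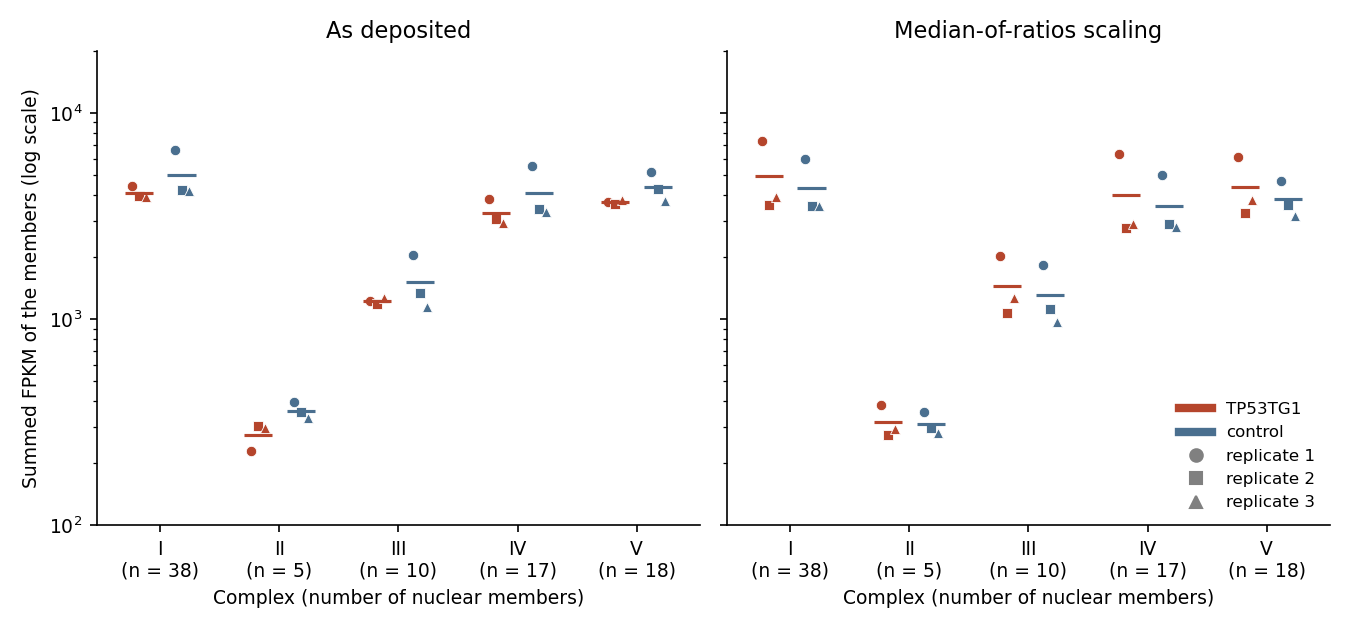
Summed FPKM of the nuclear members of each complex (log axis) in each TP53TG1 library (red, left) and control library (blue, right), as deposited and after median-of-ratios scaling; symbols mark the replicate number and lines the group mean of 3 libraries. Control library 1 is the highest as deposited in every complex, and after scaling library 1 of each group is the highest of its group.

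Complex I was represented by 38 genes, all tested, with a median log2 difference of -0.29 (-0.07 without control library 1). The groups were separated downward for 7 members (18.4%, near the 13.3% of all genes) and upward for 0, and after scaling 0 stayed apart. Its 7 core subunits, which carry out electron transfer, had a median of -0.44, and the other 31 genes, mostly accessory subunits, -0.28, with ranges of -0.50 to -0.02 and -0.43 to 0.39. The 31 were taken by name and include NDUFA4 and NDUFA4L2, and the upper bound of 0.39 is NDUFA4L2. Without the libraries numbered 1 these medians were -0.20 and -0.16, the core genes were longer (median 1028 nt against 724 nt), and the difference between them was not tested. NDUFV1, the core subunit that binds NADH and the flavin, had 108.46, 128.22 and 122.75 FPKM with TP53TG1, against 208.56, 153.12 and 142.74 FPKM with control (log2 difference -0.47, SE 0.253; limma adjusted p = 0.748). Its groups did not overlap, and after scaling the difference was -0.06. NDUFA10, an accessory subunit, had 64.18, 94.7 and 87.37 FPKM with TP53TG1, against 104.65, 113.25 and 109.58 FPKM with control, also without overlap (log2 difference -0.43, SE 0.256; scaled -0.02).

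The most abundant complex I transcripts were accessory subunits. NDUFB9 averaged 352 ± 23.8 FPKM with TP53TG1 and 462 ± 140 FPKM with control (SD, n = 3 each). NDUFS5 had 290.67, 301.29 and 301.83 FPKM with TP53TG1, against 420.99, 327.5 and 354.79 FPKM with control, without overlap, and NDUFC2 had 244.98, 256.97 and 259.18 FPKM against 409.36, 265.96 and 258.38 FPKM in control, where the groups overlapped. NDUFA4L2, a paralog of NDUFA4 known as a target of the hypoxia-inducible factor, was the member with the most positive log2 difference (0.39, SE 0.676; scaled 0.80). It had 229.43, 93.48 and 65.07 FPKM with TP53TG1, against 244.22, 39.56 and 62.92 FPKM with control, so that library 1 of each group was the high one and the groups overlapped. Without control library 2 its difference was -0.15, and without control library 1 it was 1.15, so its sign rested on single libraries. NDUFA4 itself averaged 55.9 ± 5.82 FPKM with TP53TG1 and 69.7 ± 19.7 FPKM with control (SD, n = 3 each).

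In complex II, the enzyme shared with the tricarboxylic acid cycle, the median log2 difference was -0.42 over 5 gene identifiers. It was -0.39 with 1 transcript of the second SDHD identifier, described below, moved to SDHD, and -0.37 at a minimum of 5 FPKM. The membrane anchor SDHC had 52.46, 79.45 and 81.81 FPKM with TP53TG1, against 101.37, 95.14 and 94.88 FPKM with control (log2 difference -0.47, SE 0.27; adjusted p = 0.748 by limma). The other anchor, SDHD, had 52.69, 68.96 and 62.59 FPKM with TP53TG1, against 93.8, 84.36 and 69.72 FPKM with control, and the iron-sulphur subunit SDHB had 79.9, 83.69 and 81.31 FPKM against 117.59, 95.84 and 94.11 FPKM in control. For these 3 genes, and for 4 of the 5 identifiers in all, the groups did not overlap, where 13.3% of all genes were separated downward; after scaling the second SDHD identifier alone stayed apart. Scaled, the differences were -0.07, -0.02 and 0.09. SDHA, the flavoprotein, overlapped between groups (log2 difference -0.30).

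A second identifier with the symbol SDHD, ENSG00000255292, overlaps SDHD on chromosome 11 (GENCODE 29, GRCh38, plus strand, 112086903 to 112193805, against 112086773 to 112120013 for SDHD). It was listed at 0 in all 3 TP53TG1 libraries, against 0.32, 0.28 and 9.78 FPKM in the control libraries. The value of 9.78 FPKM in control library 3 came whole from 1 transcript of 516 nt that GENCODE 29 places in SDHD. This identifier was the only member past the threshold when the replicate number was added as a block (adjusted p = 0.0036 by limma; 1 of 80 members, against 1.49% of all genes). In that fit, p-values did not follow the spread of the named members. With that transcript counted under SDHD, 0 of 79 tested members passed with the block. With the block and median-of-ratios scaling, 0 members passed, against 0.0467% of all genes (6 genes).

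Complex III had 9 tested genes, a median log2 difference of -0.31 (-0.03 without control library 1) and no member whose groups were apart in either direction. CYC1, which encodes cytochrome c1, had 199.12, 203.47 and 275.4 FPKM with TP53TG1, against 445.49, 268.43 and 193 FPKM with control. Its TP53TG1 to control ratio was 0.45 in libraries 1, 0.76 in libraries 2 and 1.43 in libraries 3. The core proteins UQCRC1 and UQCRC2 gave 0.45, 0.94 and 1.01 and 0.39, 0.81 and 1.13 for the same ratios, with log2 differences of -0.41 (SE 0.286) and -0.48 (SE 0.378). UQCRB, a small subunit next to the ubiquinone site, had 213.87, 233.32 and 240.16 FPKM with TP53TG1, against 348.51, 254.29 and 232.21 FPKM with control. UQCRH, the hinge protein that contacts cytochrome c1, averaged 204 ± 44.1 FPKM with TP53TG1 and 202 ± 61 FPKM with control (SD, n = 3 each; log2 difference 0.03, SE 0.296), and its sign changed when single libraries were left out (-0.16 to 0.26). Its near copy UQCRHL stayed at or under 0.15 FPKM with TP53TG1 and 0.26 FPKM with control and was not tested.

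In complex IV, paralogs lay far apart in level in all 6 libraries. COX6A1 had 854.65, 663.17 and 647.71 FPKM with TP53TG1, against 1368.82, 724.31 and 809.95 FPKM with control, and was the second most abundant member; COX6A2 was listed at 0 in all 6 libraries. COX4I1 averaged 401 ± 38.6 FPKM with TP53TG1 and 513 ± 166 FPKM with control (SD, n = 3 each), while COX4I2, the form of lung and hypoxic cells, was listed at 0 throughout. COX8A averaged 450 ± 37.9 and 541 ± 164 FPKM (SD, n = 3 each) in TP53TG1 and control libraries, and COX8C reached 0.19 FPKM in TP53TG1 library 1 alone. COX7B2, the testis form, was listed at 0, and COX6B2 and COX7A1, the testis and muscle forms of their families, did not exceed 0.22 and 0.29 FPKM. The expressed forms COX6B1, COX7A2 and COX7B had log2 differences of -0.19, -0.03 and -0.14 with SE of 0.282, 0.292 and 0.236.

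COX7A2L had the smallest p of complex IV. It had 53.81, 76.75 and 57.52 FPKM with TP53TG1, against 112.77, 83.42 and 89.47 FPKM with control, without overlap (log2 difference -0.60, 95% interval -1.21 to 0.01; limma adjusted p = 0.748). After scaling the difference was -0.20, and without the libraries numbered 1 it was -0.37. The TP53TG1 to control ratio was 0.48, 0.92 and 0.64 in libraries 1, 2 and 3. Over the complex the median log2 difference was -0.29 (-0.07 without control library 1), with 2 of 11 members separated downward (COX7A2L and COX7B; 18.2%, near the 13.3% of all genes) and 0 upward, and neither gene stayed apart after scaling.

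Complex V had 17 tested genes, a median log2 difference of -0.32 (-0.16 without control library 1), and 7 members separated downward (41.2%, where 13.3% of all genes were), of which 0 stayed apart after scaling. The 7 include ATP5S, which carries the family name without being a classical subunit. Subunit c, which forms the rotating ring of ATP synthase, is encoded by 3 genes that give the same mature protein, and in all 3 the groups did not overlap. ATP5G1 had 53.22, 48.36 and 57.28 FPKM with TP53TG1, against 99.91, 80.81 and 71.59 FPKM with control. Its log2 difference was -0.65 (95% interval -1.23 to -0.06; unadjusted p = 0.0338 and adjusted p = 0.748 by limma), -0.24 after scaling and -0.52 without the libraries numbered 1. Its adjusted p ranged from 0.439 to 1 over the alternatives. ATP5G2, the most abundant of the 3, had 336.76, 343.12 and 349.69 FPKM with TP53TG1, against 456.79, 419.61 and 430.16 FPKM with control (log2 difference -0.34, SE 0.212; scaled 0.07), and ATP5G3 had 88.18, 135.17 and 140.88 FPKM against 145.21, 159.84 and 148.48 FPKM in control (-0.34, SE 0.267; scaled 0.06).

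**Figure D3:**
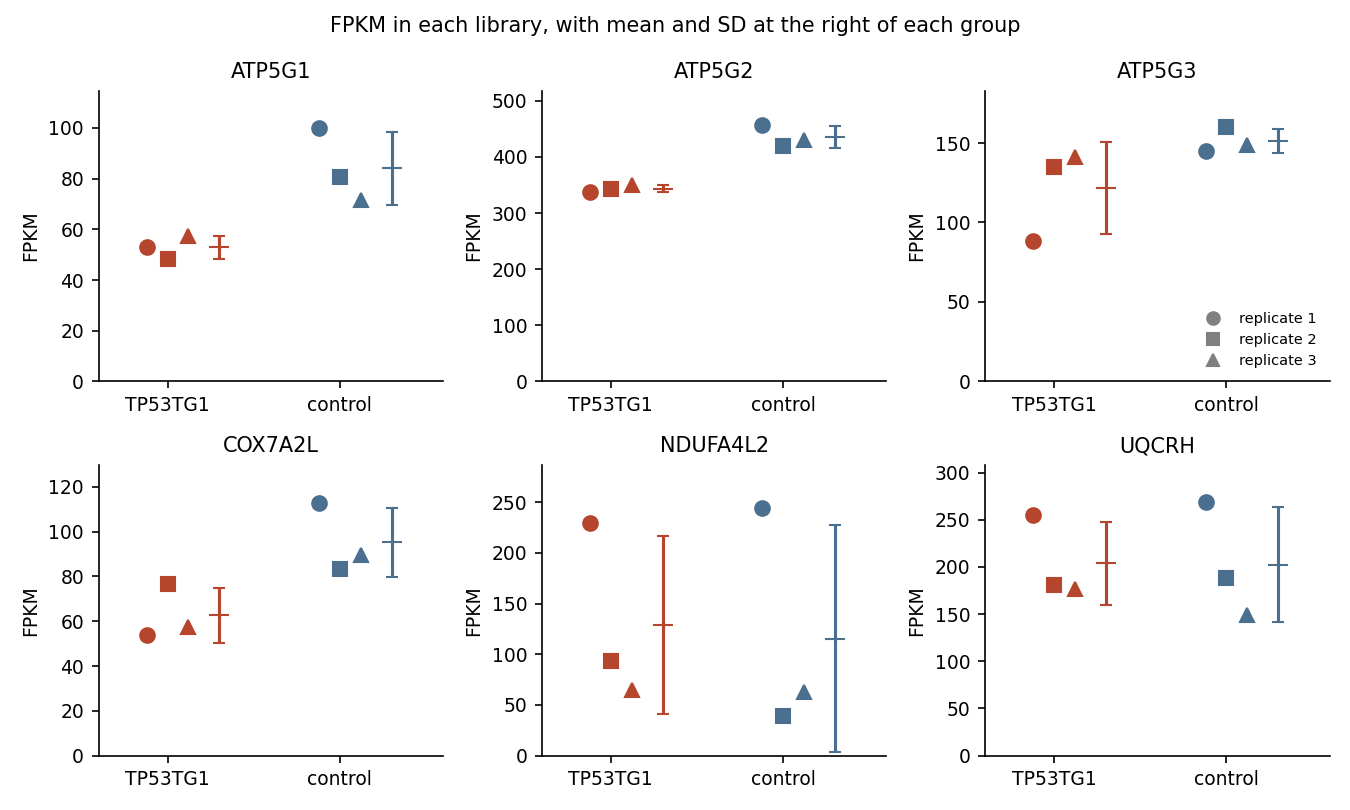
FPKM of 6 members in each TP53TG1 library (red, left) and control library (blue, right), with symbols for the replicate number and the mean and SD of 3 libraries beside them. In ATP5G1, ATP5G2, ATP5G3 and COX7A2L every TP53TG1 point lies below every control point, whereas in NDUFA4L2 and UQCRH the groups overlap and library 1 of each group is the highest.

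ATP5L2 was listed at 0 but for 0.08 FPKM in TP53TG1 library 2 and was not tested. The catalytic F1 subunit ATP5B had 388.66, 612.32 and 587.16 FPKM with TP53TG1, against 781.01, 789.36 and 583.81 FPKM with control (log2 difference -0.45, SE 0.268). The groups overlapped, since control library 3 lay below 2 of the TP53TG1 libraries. ATP5J2, which encodes subunit f of the membrane part, was the most abundant member, at 1258.15, 1184.67 and 1341.73 FPKM with TP53TG1, against 1599.7, 1305.81 and 1134.1 FPKM with control (log2 difference -0.08, SE 0.228). By place in the enzyme, the median log2 difference was -0.41 for the 2 head subunits, -0.24 for the 3 of the central stalk, -0.34 for the 3 subunit c genes, -0.20 for the 4 of the peripheral stalk and -0.19 for 3 accessory subunits of the membrane part. After scaling these were -0.01, 0.16, 0.06, 0.22 and 0.22. No difference between places was tested.

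Libraries with the same replicate number deviated together (correlations of deviations 0.71, 0.562 and 0.289 across 12853 genes), so the differences were also read within numbers. Libraries 2 and 3 of opposite groups also correlated positively (0.4 and 0.302), more than libraries 3 with each other. The numbers are thus not shown to be pairs, and the values below are a description only. In libraries 1 all 80 members were lower with TP53TG1, with a median log2 difference of -0.60 where all genes gave -0.72. In libraries 2, 72 members were lower and the median was -0.18, against -0.11 for all genes, and in libraries 3, 52 were lower and the median was -0.10, against -0.21. The members thus lay above the median of all genes in libraries 1 and 3 and below it in libraries 2. Complex III in libraries 3 had 7 of 9 members higher with TP53TG1 and a median of 0.05, whereas complexes I, II, IV and V had negative medians within every number.

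**Figure D4:**
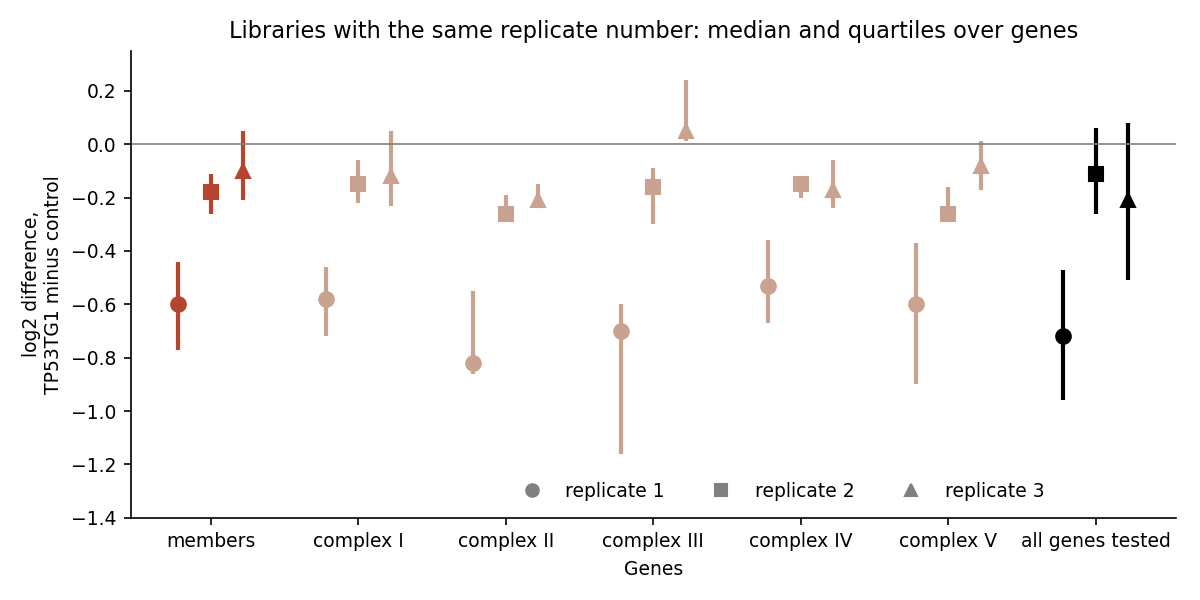
Median (symbols) and quartiles (bars) over genes of the log2 difference, TP53TG1 minus control, between libraries with the same replicate number, for all tested members, each complex and all genes tested. Libraries 1 give the most negative medians in every group of genes (-0.60 for the members, -0.72 for all genes), and complex III in libraries 3 is the only median above 0.

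Library 1 of each group differed from the other 2 libraries in a way that followed transcript length, and the members are short. Their median length was 837 nt, against 2146 nt for all genes tested. In TP53TG1 libraries the log2 value of library 1 minus the mean of the other 2 had a median of 0.18 for 38 members under 800 nt, -0.09 for 28 of 800 to 1500 nt and -0.62 for 14 over 1500 nt. In control libraries the same classes gave 0.64, 0.50 and 0.21. Over all genes tested the TP53TG1 medians were 0.05, -0.15 and -0.86 and the control medians 0.45, 0.36 and -0.25. Across the 80 members, which share these libraries and are not independent, the deviation correlated with log2 length at r = -0.52 with TP53TG1 and r = -0.24 with control, and the deviations of both groups with each other at r = 0.73. Without both libraries numbered 1 the members' median difference was -0.16, the same as for all genes. The part of length and RNA quality in the members' differences was not tested beyond these values.

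**Figure D5:**
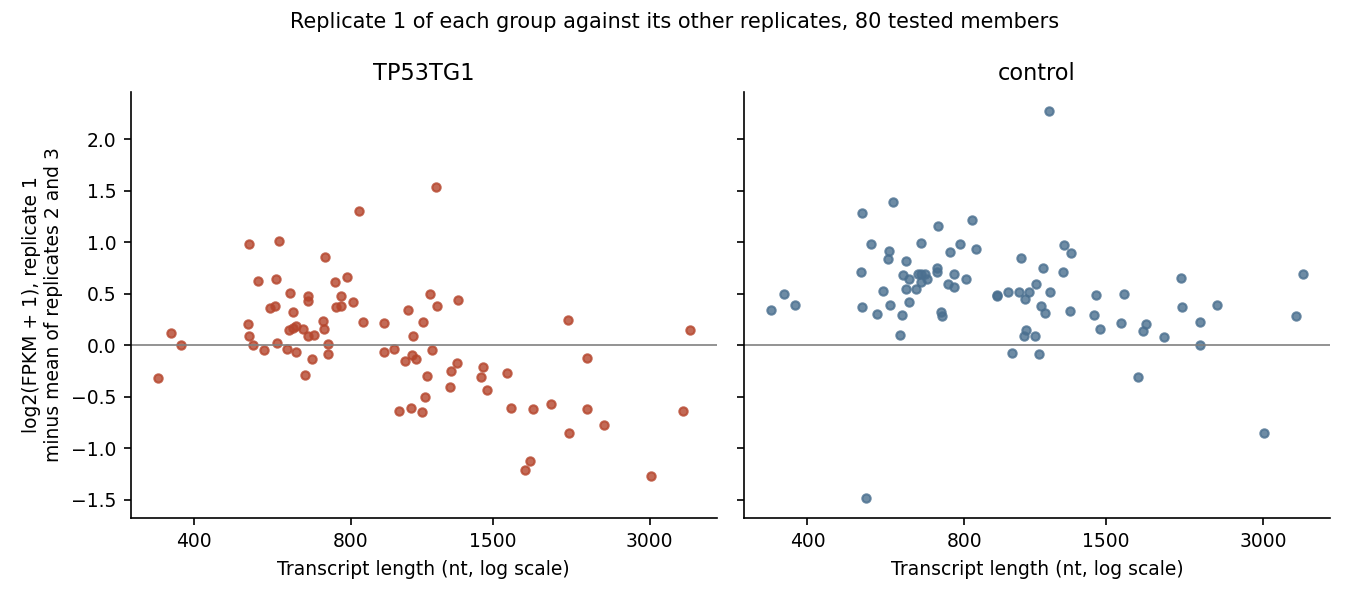
For each of the 80 tested members, the log2(FPKM + 1) value of replicate 1 minus the mean of replicates 2 and 3 against transcript length (log axis), in TP53TG1 libraries (left) and control libraries (right). Long members lie lower than short members in both panels, and the TP53TG1 points over 1500 nt lie mostly below 0 (median -0.62).

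Subunits made in the cytosol were set against those encoded in mitochondrial DNA in the same complex. The summed nuclear FPKM was 19.4% ± 1.04 of the mitochondrially encoded sum in complex I with TP53TG1 and 20.6% ± 0.948 with control (SD, n = 3 each). In complex III it was 60.8% ± 8.36 with TP53TG1 and 59.3% ± 6.9 with control, in complex IV 11.4% ± 0.0885 and 11.1% ± 0.999, and in complex V 16.9% ± 0.831 and 16.4% ± 2.54 (SD, n = 3 each). These differences were smaller than or close to the spread between replicates, and the groups overlapped in complexes III, IV and V. In complex I the TP53TG1 libraries gave 20.6%, 19% and 18.7% and the control libraries 20.1%, 20% and 21.7%, which also overlapped. All 13 mitochondrially encoded mRNAs were lower with TP53TG1 as deposited, with a median of -0.27, and 0 passed the test; scaled, the median was 0.14.

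Genes that build, feed or regulate the complexes had medians close to that of all genes tested (-0.35). By limma 0 passed the test in any list, against 0.00778% of all genes, and 1 had an unadjusted p under 0.05, against 2.35% of all genes. The median log2 difference was -0.33 for 16 complex I assembly factors, -0.34 for 36 identifiers of assembly factors of complexes II to V, -0.35 for 20 electron carriers and other subunits, -0.37 for 18 tested regulators of mitochondrial gene expression and -0.36 for 22 enzymes of the tricarboxylic acid cycle and pyruvate dehydrogenase. The scaled medians of these lists were 0.06, 0.06, 0.01, 0.00 and 0.04. In the same order, the groups were separated downward for 1 of 16, 8 of 36, 5 of 20, 1 of 18 and 3 of 22 genes, where 13.3% of all genes were. They were separated upward for 0. The gene with an unadjusted p under 0.05 was COQ8A, needed for ubiquinone synthesis (limma adjusted p = 0.748), at 6.43, 11.35 and 4.81 FPKM with TP53TG1, against 11.29, 14.57 and 15.89 FPKM with control. CYCS, which encodes cytochrome c, had 130.8, 150.55 and 186.89 FPKM with TP53TG1, against 173.82, 166.3 and 152.75 FPKM with control. Of the factors whose motifs were counted, NRF1 had 1.8, 7.51 and 5.65 FPKM with TP53TG1, against 3.58, 6.49 and 8.63 FPKM with control, and GABPA and YY1 had log2 differences of -0.25 and -0.29 with SE of 0.413 and 0.375. The median difference was -0.34 for 14 tested members with the NRF1 core and -0.29 for 49 without it. It was -0.31 for 20 with the ETS letters and -0.29 for 43 without them. For the YY1 letters it was -0.30 for 9 with and -0.30 for 54 without. The cyclic AMP response element gave -0.36 for 5 and -0.29 for 58. CCAAT gave -0.26 for 22 and -0.31 for 41, and TATAAA -0.22 for 6 and -0.31 for 57. These differences were not tested. COQ8A, CYCS, NRF1, GABPA and YY1 were chosen after their values were seen.

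The transcript that carried most of a gene's FPKM was the same in all 6 libraries for 67 of 80 tested members and differed for 13. The leading transcript had a coding label for 70 members, a nonsense-mediated decay label for 4 (SDHC, COX6C, NDUFA3 and NDUFA7), no coding label as a processed transcript for 3 (NDUFC1, ATP5F1 and ATP5S) and a retained intron for 2 (NDUFA10 and NDUFA9). In NDUFS1, the large iron-sulphur core subunit, 1 coding transcript of 2371 nt held 0%, 53.6% and 48.9% of the FPKM in TP53TG1 libraries 1 to 3 and 19.4%, 45.8% and 52.2% in control libraries 1 to 3, so both libraries numbered 1 were the low ones. In NDUFA7, an accessory subunit, the transcript labelled for nonsense-mediated decay held 21.2%, 51.1% and 33.7% with TP53TG1, against 70.1%, 64.1% and 73.2% with control. These groups did not overlap, which was not tested, and the gene's summed FPKM had a log2 difference of -0.14 (SE 0.46). The leading transcript of UQCRH was also apart (92.7%, 91.1% and 90.5% with TP53TG1, against 85.3%, 86.1% and 85.7% with control). That of NDUFA6 was apart in the other direction (94.6%, 97.7% and 96.5%, against 98.6%, 98.9% and 98.3%). How often such shares are apart over all genes was not computed. In COX6C the transcript labelled for nonsense-mediated decay held 93.6% ± 2.56 with TP53TG1 and 90.8% ± 2.13 with control (SD, n = 3 each). ATP5G1's leading transcript held 71.1% ± 7.32 with TP53TG1 and 63.9% ± 2.88 with control (SD, n = 3 each). Such labels follow from how reads were divided among overlapping transcripts by the authors' software. The 143 pseudogene-like names left out summed to 0.0326% to 0.161% of the members' FPKM per library. Of these, only UQCRFS1P1 reached a mean of 1 FPKM. It had 2.89, 9.86 and 10.51 FPKM with TP53TG1, against 6.3, 13.01 and 12.96 FPKM with control. UQCRFS1, the member it is named after, had 29.4, 41.51 and 51.46 FPKM with TP53TG1, against 57.85, 51.94 and 43.1 FPKM with control. The 5 names with a hyphen summed to 0.022% to 0.211%. NDUFV2-AS1, antisense to NDUFV2, was among the names with a hyphen (mean 1.68 FPKM). Since strand is not given, its reads and those of NDUFV2 cannot be told apart where they overlap. These COX6C, NDUFA7, NDUFS1, UQCRH, NDUFA6, UQCRFS1 and left-out values were chosen after they were seen.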

How the data were processed

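Per the labels' protocols, TRIzol RNA was treated with DNase I and went into an Illumina TruSeq RNA preparation. No source used here states read length, strand or RNA selection. The submitters' processing notes name HISAT2, StringTie and the build GRCh38.p10, without tool versions. The FPKM values, 1 per annotated transcript with 2 decimals, were made by the authors by steps the notes do not describe and deposited without a unit in the file headers. The unit was taken as FPKM because totals differ between libraries; StringTie coverage is not excluded. FPKM carry no correction for library composition.

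Here, blank symbols were filled by transcript identifier from the other libraries and values were added per gene identifier. GENCODE release 29 gave lengths, transcript labels and positions for 99.8% of transcripts. The test was limma 3.58.1 in R 4.3.3 on log2(FPKM + 1), for genes averaging 1 FPKM or more (trend, two-sided, Benjamini-Hochberg over 12853 genes, threshold 0.05) without scaling or block. A fold change on this scale understates low genes. An exact 0 can be a failed estimate. The fits were tested on simulated data. There, 0% of the genes with a true log2 change of 1 were called, 44.5% at 2 and 94% at 4. The simulated libraries did not deviate together as the real ones did. Tables and figures used Python 3.11.15, pandas 2.3.3, scipy 1.17.1 and matplotlib 3.10.9.

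Depth was estimated as the inverse of percentile 5 of FPKM times length in kb over single-transcript genes 300 to 600 nt long. On that scale 78 of the tested members rested on a median of 1026 to 2125 fragments per library, and on 78.2 to 172 fragments for NDUFC1, the lowest of the 78. The second SDHD identifier, listed at 0 in all TP53TG1 libraries, was not among the 78. The intervals given are from limma at 95%.

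Alternatives were median-of-ratios scaling, the same total per library, a pseudocount of 0.1, a minimum of 5 FPKM or none, the leading transcript alone, removal of a length trend (lowess span 0.3), the replicate number as a block, leaving out libraries, and moving 1 transcript to SDHD, the last with and without the block and chosen after seeing the data. The main test was not paired. In the block fits and the differences read within numbers, replicate numbers were treated as pairs because every same-numbered correlation of deviations exceeded 0.1. The labels do not say what a number stands for, and 2 unlike pairs also correlated positively (0.4 and 0.302), more than libraries 3 with each other (0.289). The rule thus cannot tell whether the numbers are pairs.

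The members and lists were chosen with earlier results of these data known. Named were, per complex, the 3 highest members, the 2 with the smallest p in each direction, all past the threshold, and paralog pairs. NDUFS1, NDUFA6, SDHA, COX5B, COX6C, UQCRFS1 and the members named by transcript label were chosen after their values were seen.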

Additional observations from a re-analysis of the deposited data

How the results depend on the processing

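The number of members past the threshold was 0 in every alternative except the fit with the replicate block, which gave 1 (the second SDHD identifier) and changed no other member's call; with that identifier's transcript moved to SDHD it was 0 with and without the block. TP53TG1, whose log2 difference lay between 3.15 and 3.72 when single libraries were left out, passed the threshold under median-of-ratios scaling (3.83), a minimum of 5 FPKM (3.46), length correction (3.75), the block (3.46), the block after scaling (3.83) and without the libraries numbered 1 after scaling (4.04), and its adjusted p ranged from 8.91e-22 to 0.799 by limma. The count of members separated downward was 20, and was 1 with median-of-ratios scaling with or without the block, 3 with the same total per library, 3 with the length trend removed, 42 without both libraries numbered 1 and 6 without them after scaling. The shares of all genes in these settings were 2.05%, 2.88%, 2.6%, 35.6% and 16.6%, against 13.3% with all libraries; with 2 libraries a group, groups are apart more often by construction. The count separated upward was 0, and was 3, 4, 1 and 14 with the same total, with the length trend removed, without both libraries numbered 1, and without them after scaling, where 1.3%, 3.1%, 6.57% and 16.5% of all genes were. The members' median log2 difference of -0.30 was 0.11 with median-of-ratios scaling with or without the block, -0.03 with the same total, 0.00 with the length trend removed and 0.02 without the libraries numbered 1 after scaling; the median of all genes was 0.00, -0.12, -0.01 and 0.00 in these settings, which move all genes together. Leaving out single libraries gave 0 members past the threshold each time, 21 to 41 separated downward and 0 to 1 upward. The 41 (51.2%) came without TP53TG1 library 1, where 18.3% of all genes were separated downward. The 21 (26.2%) came without control library 1, where 30.5% of all genes were. The members' median ranged from -0.42 (without control library 3) to -0.09 (without control library 1). Minus the median of all genes, the range was -0.18 to 0.28. The medians of complexes I to V ranged from -0.42 to -0.07, -0.51 to -0.30, -0.43 to -0.03, -0.40 to -0.07 and -0.39 to -0.16. The causes were not tested. In the block fit without scaling, p-values did not follow the spread of the named members, which limits what its calls show. The width of the intervals with 3 libraries a group limits what could be detected.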
